A study of Homo sapiens with 18 samples.

Results

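The comparison described here is the difference between 2 breast cancer cell lines in their response to erastin. It is the interaction on the log2 scale: the erastin effect in sh-IGFBP6 cells minus the erastin effect in sh-LUC cells. It uses 12 of the 18 RNA sequencing libraries of the study and 4 of its 6 groups, with 3 libraries in each. The tested set was 15189 genes, out of 60709 in the count table. All groups are MDA-MB-231 cells, a human triple-negative breast cancer line with mesenchymal features. The first group is sh-IGFBP6, labelled IGFBP6 knockdown, given 2.5 μM erastin for 24 hours. The second is the same knockdown line in control medium with 0.5% DMSO and 0.5% ethanol. The third is sh-LUC, the control hairpin line labelled wild type, given 2.5 μM erastin for 24 hours. The fourth is sh-LUC in the control medium. Erastin was dissolved in DMSO and its medium also held 0.5% ethanol, and all cells were seeded at 800000 per well and grown for 24 hours before treatment. The labels do not say whether each hairpin line is a clone or a pool, or how many hairpins were used, so the hairpin and the line cannot be told apart. They do not say whether the replicates were separate cultures, so p-values measure the spread between these libraries, which may be technical.

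Erastin blocks system xc-, the exchanger that imports cystine for glutathione synthesis. Cells short of cystine activate the integrated stress response, in which ATF4 induces genes for amino acid transport, amino acid synthesis and tRNA charging, and the NRF2 programme of antioxidant enzymes. When glutathione runs out, GPX4 can no longer reduce lipid peroxides and cells may die by ferroptosis, an iron-dependent form of cell death. IGFBP6 is a secreted protein that binds insulin-like growth factors, IGF2 above all.

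One library stood apart. Replicate 3 of sh-IGFBP6 with erastin had 609936 counts, of which 54.4% fell on the mitochondrial ribosomal RNA genes MT-RNR1 and MT-RNR2, leaving 278278 counts for other genes. The other 11 libraries had 2708143 to 7977429 counts, with 0.0471 to 0.280% on those 2 genes. Mitochondrially encoded mRNAs took 16.3% of the remaining counts in that library, and 2.07 to 9.33% in the others. The counts of called genes and of each class are therefore also given without this library. Of 34 gene lists, 17 had a count of members higher or lower that moved without it, by at most 2 genes; the largest move was in YAP-TEAD targets, with 13 lower without it against 11 with it. IGFBP6 had 0.54, 0.42 and 3.81 CPM (counts scaled to a common library total) in sh-IGFBP6 with erastin, the last being 1 count, and 0.602, 1.35 and 2.22 CPM in sh-IGFBP6 controls. It had 15.4, 15.5 and 15.3 CPM in sh-LUC with erastin and 20.9, 20.1 and 17.3 CPM in sh-LUC controls. The targeted gene was thus lower in every sh-IGFBP6 library than in every sh-LUC library, and its response did not differ between lines by the test (log2 difference -0.99 ± 0.61 (SE), adjusted p = 0.247, edgeR quasi-likelihood test). The MDA-MB-231 markers VIM, CD44, AXL, ZEB1, CAV1 and EGFR were detected in every library, the lowest value being 78.2 CPM. LYZ and HBB had 0 counts, and CD3E, CDH5, COL1A2 and DCN had at most 2 counts in any group. Other leukocyte and stromal markers were present. PTPRC, CD14, PECAM1 and VWF did not exceed 4.51 CPM in any library. COL1A1 had 0 to 7.02 CPM in sh-IGFBP6 with erastin and 4.92 to 7.23 CPM in its controls, against 15.1 to 18.3 CPM in sh-LUC with erastin and 34.3 to 41 CPM in its controls. PDGFRB had 0 to 0.42 CPM in sh-IGFBP6 with erastin and 0.301 to 0.771 CPM in its controls, against 13.5 to 14.1 CPM in sh-LUC with erastin and 32.5 to 37.9 CPM in its controls. Both were thus higher in sh-LUC and lower there with erastin, and their part in the results was not tested. FOXA1, a luminal factor, had 30.5 to 36.2 CPM in sh-IGFBP6 with erastin and 34.5 to 37.3 CPM in sh-IGFBP6 controls, against 0.266 to 0.639 CPM in sh-LUC with erastin and 0 to 0.354 CPM in sh-LUC controls. Other luminal markers were split. EPCAM was also higher in sh-IGFBP6, at 10.3 to 22.9 CPM against 2.83 to 4.81 CPM in sh-LUC. CDH1 went the other way, with at most 0.27 CPM in sh-IGFBP6 and 3.05 to 7.21 CPM in sh-LUC. So did GATA3, with 3.78 to 7.62 and 9.91 to 13.1 CPM. ERBB2 had 66.4 to 91.9 CPM in sh-IGFBP6 and 74.5 to 106 CPM in sh-LUC, and ESR1 and PGR at most 2.16 CPM.

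The response to erastin differed between the lines for 3973 of 15189 genes (26.2%) at an adjusted p below 0.05. The log2 response was higher in sh-IGFBP6 for 2147 genes (14.1%) and lower for 1826 (12%), and 957 genes (6.3%) differed at least 2-fold. Erastin changed 4404 genes (29%) in sh-IGFBP6 and 6967 genes (45.9%) in sh-LUC, and 627 (4.13%) against 1483 (9.76%) changed at least 2-fold. The calls were 2226 higher (14.7%) and 2178 lower (14.3%) in sh-IGFBP6, and 3256 higher (21.4%) and 3711 lower (24.4%) in sh-LUC. That split depended on the scaling: by library size alone it was 630 higher and 2098 lower in sh-IGFBP6 and 1457 higher and 3114 lower in sh-LUC, and with the mitochondrial ribosomal RNA genes also left out it was 1554 and 3177 in sh-IGFBP6 and 2373 and 4879 in sh-LUC. The fitted responses pointed the same way for 2253 of the 2693 genes called in both lines, and for 1669 of these the size did not differ between lines by the test. Of the 788 genes that rose at least 2-fold in sh-LUC, 409 had a lower response in sh-IGFBP6, 11 had a higher one, and 338 rose in sh-IGFBP6 as well. These genes were picked by their rise in sh-LUC, which the difference subtracts, so the choice itself favours a lower response in sh-IGFBP6. Without replicate 3 of sh-IGFBP6 with erastin, the response differed for 3977 of 15752 genes (25.2%), and 3823 of the original 3973 calls were kept with the same sign. No call changed sign. Of the calls without it, 2029 (12.9%) were higher in sh-IGFBP6 and 1948 (12.4%) lower, and 969 (6.15%) were at least 2-fold. Erastin then changed 4354 genes in sh-IGFBP6 (27.6%), 2256 higher (14.3%) and 2098 lower (13.3%), 640 (4.06%) at least 2-fold. In sh-LUC it changed 7055 (44.8%), 3524 higher (22.4%) and 3531 lower (22.4%), 1585 (10.1%) at least 2-fold. Scaling by library size alone, in place of TMM factors, moved the median log2 change of all genes to -0.19 in sh-IGFBP6 and -0.12 in sh-LUC and that of the difference to -0.06, against 0.00, -0.02 and 0.02 with TMM.

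Genes with a called difference fell into classes by the response in each line. A reversed gene was called in both lines with opposite signs, and 440 genes were (2.9%). Of these, 229 (1.51%) went up in sh-IGFBP6 and down in sh-LUC, and 211 (1.39%) went down in sh-IGFBP6 and up in sh-LUC. Another 584 genes (3.84%) moved the same way in both lines and differed in size, 147 (0.968%) with a larger response in sh-IGFBP6 and 437 (2.88%) with a smaller one. The response was called in sh-IGFBP6 alone for 754 genes (4.96%), in sh-LUC alone for 2036 (13.4%), and in neither for 159 (1.05%). The most frequent difference was thus a response in sh-LUC that was not called in sh-IGFBP6. Depth was unequal, so a response was not equally easy to call in each line. Totals were 7153762, 4497420 and 609936 counts in sh-IGFBP6 with erastin, against 7281095, 7872349 and 7977429 in sh-LUC with erastin. Controls had 2994716 to 4660268 in sh-IGFBP6 and 2708143 to 4043424 in sh-LUC. Reversals were mostly small. Genes reversed upward in sh-IGFBP6 had a median absolute log2 change of 0.40 in sh-IGFBP6 and 0.43 in sh-LUC, and those reversed downward had 0.33 and 0.39 in the same lines. At least 1.5-fold in both lines, 53 genes reversed, 36 up and 17 down in sh-IGFBP6. Without replicate 3 of sh-IGFBP6 with erastin, 429 genes reversed (2.72%), 217 up (1.38%) and 212 down (1.35%) in sh-IGFBP6, and 565 (3.59%) differed in size, 138 larger (0.876%) and 427 smaller (2.71%). The response was then called in sh-IGFBP6 alone for 764 genes (4.85%), in sh-LUC alone for 2064 (13.1%) and in neither for 155 (0.984%). The classes thus kept their order of size. Of the 440 reversed genes, 401 stayed in their class without replicate 3, and 130 stayed when each of the 12 libraries was left out in turn. The scaling mattered for them: 275 of the 440 were still reversed when the 2 mitochondrial ribosomal RNA genes were left out and libraries were scaled by size alone, a setting that gave 435 reversed genes.

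**Figure D1:**
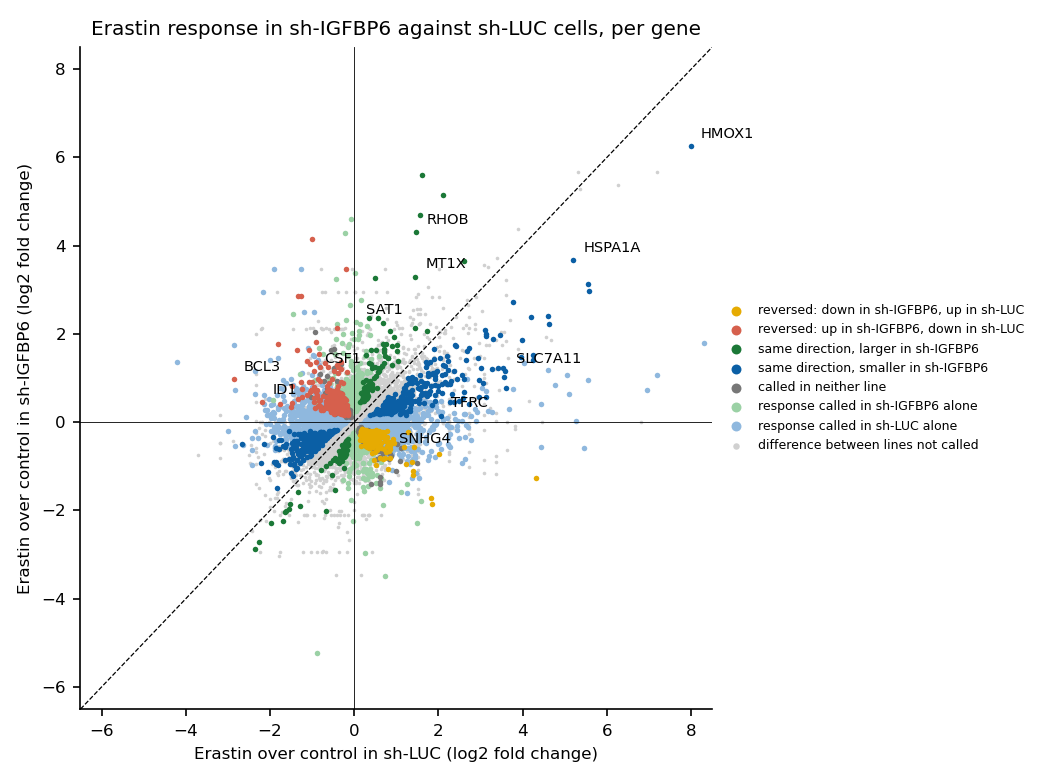
Log2 fold change of erastin over control in sh-IGFBP6 (vertical) against sh-LUC (horizontal) for 15187 tested genes with a symbol of their own, coloured by class; 3 genes lie outside the axes. Points below the dashed line of equal response at the right, such as SLC7A11 and HSPA1A, rose less in sh-IGFBP6, and the 2 reversed classes lie at the upper left and lower right.

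The cystine transporter and the integrated stress response rose less in sh-IGFBP6. SLC7A11, the cystine-importing subunit of system xc- (chr4:138164097-138242349, minus strand, GRCh38), had 521, 477 and 533 CPM in sh-IGFBP6 with erastin and 207, 257 and 212 CPM in sh-IGFBP6 controls. In sh-LUC it had 726, 732 and 666 CPM with erastin and 59.4, 53.2 and 63.5 CPM in controls. The groups did not overlap in either line, and the untreated sh-IGFBP6 libraries were already above the untreated sh-LUC libraries. Its log2 rise was 1.15 ± 0.06 in sh-IGFBP6 and 3.59 ± 0.07 in sh-LUC, a difference of -2.43 ± 0.10 (adjusted p = 2e-40). SLC3A2, the heavy chain of the same transporter and named after its values were seen, rose by log2 1.06 in sh-IGFBP6 and 2.08 in sh-LUC (difference -1.02, adjusted p = 3.75e-19). The antisense gene SLC7A11-AS1 overlaps SLC7A11, and no source states whether counting used strand, so reads of the pair cannot be told apart.

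Of 28 integrated stress response genes, 25 passed the filter on low counts. None had a larger log2 response in sh-IGFBP6 and 20 had a smaller one (80%, against 26.2% called in either direction among all tested genes). Their median log2 response was 0.56 in sh-IGFBP6 and 2.49 in sh-LUC, and the median difference was -1.17, against 0.02 over all tested genes. Both lines rose for 17 of the 20, and 3 rose in sh-LUC alone. PSAT1, an enzyme of serine synthesis, had 256, 225 and 198 CPM in sh-IGFBP6 with erastin and 151, 185 and 146 CPM in controls, against 277, 288 and 292 CPM in sh-LUC with erastin and 46, 50.2 and 47 CPM in controls. All 4 groups were separate, and the 2 lines were closer with erastin than in control medium. The difference was -2.02 ± 0.11 (adjusted p = 1.1e-30). TRIB3, a pseudokinase induced by ATF4, had 49.4, 46.4 and 64.8 CPM in sh-IGFBP6 with erastin and 41.3, 39.7 and 28.3 CPM in controls, against 122, 103 and 114 CPM in sh-LUC with erastin and 17.3, 19.2 and 14.9 CPM in controls (difference -2.32 ± 0.16, adjusted p = 2.2e-24). In both genes the untreated sh-IGFBP6 libraries were above the untreated sh-LUC libraries. MTHFD2, a mitochondrial folate enzyme, was not called in sh-IGFBP6 (log2 0.18 ± 0.09, adjusted p = 0.114) and rose in sh-LUC (2.62 ± 0.09, adjusted p = 1.7e-48), and the difference was called (-2.44 ± 0.13, adjusted p = 4.1e-31). ATF3, a stress-induced transcription factor, differed by -2.41 ± 0.34 (adjusted p = 4.1e-09). CHAC1, which degrades glutathione, had 15, 7.14 and 7.62 CPM in sh-IGFBP6 with erastin and 2.11, 6.36 and 0.985 CPM in controls, against 104, 107 and 112 CPM in sh-LUC with erastin and 7.08, 8.12 and 12.2 CPM in controls. Its controls varied widely, and its difference of -1.76 ± 0.66 did not pass the threshold (adjusted p = 0.0705). It passed with DESeq2 (adjusted p = 0.0361), with libraries scaled by size alone (0.000469) and with no filter on low counts (0.000146), and without replicate 3 of sh-IGFBP6 control (0.00912) or replicate 1 of sh-IGFBP6 with erastin (0.00333). DDIT3, which encodes the transcription factor CHOP and is named after its values were seen, had nearly the same fitted rise in both lines, log2 0.94 in sh-IGFBP6 and 0.97 in sh-LUC (difference -0.03 ± 0.26, adjusted p = 0.966). ASNS, asparagine synthetase, had -2.55 ± 0.52 (adjusted p = 5.9e-05), and lost its call without replicate 2 of sh-IGFBP6 control (difference -1.03, adjusted p = 0.382).

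Amino acid transport and tRNA charging followed the same pattern. Of 14 amino acid transporters tested, 9 had a lower response in sh-IGFBP6 and none a higher one (64.3% called, against 26.2% of all genes), with a median difference of -1.05. SLC7A1, a cationic amino acid transporter, had 374, 339 and 377 CPM in sh-IGFBP6 with erastin and 338, 360 and 349 CPM in controls, which overlapped. It had 690, 628 and 665 CPM in sh-LUC with erastin and 239, 239 and 241 CPM in controls (difference -1.42 ± 0.08, adjusted p = 1.3e-31). SLC38A1 and SLC1A5, which carry glutamine and other neutral amino acids, were also not called in sh-IGFBP6 and rose in sh-LUC, with differences of -1.22 ± 0.08 and -1.16 ± 0.08. Of 20 cytosolic tRNA synthetase genes, 14 had a lower response in sh-IGFBP6 and 1 a higher one (75% called, against 26.2% of all genes). Their median log2 response was 0.02 in sh-IGFBP6 and 0.85 in sh-LUC; the first turned negative under each other scaling run except TMM factors without the mitochondrial ribosomal RNA genes. MARS1, methionyl-tRNA synthetase, counted as reversed, with 296, 257 and 255 CPM in sh-IGFBP6 with erastin and 307, 347 and 306 CPM in controls, against 327, 305 and 310 CPM in sh-LUC with erastin and 139, 118 and 133 CPM in controls. Its fall in sh-IGFBP6 was small (-0.22 ± 0.06) beside its rise in sh-LUC (1.27 ± 0.06). QARS1, glutaminyl-tRNA synthetase, was the member with a higher response in sh-IGFBP6 (0.38 ± 0.09, adjusted p = 0.00046), and it fell in sh-LUC.

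**Figure D2:**
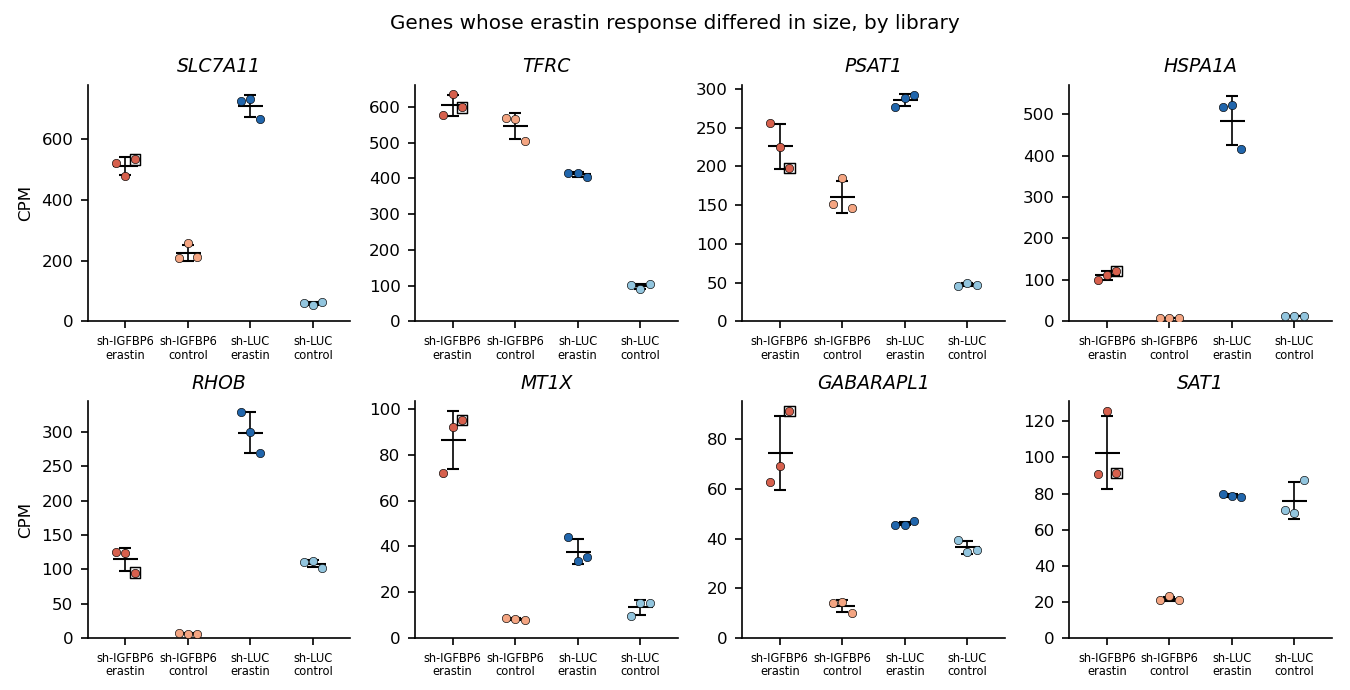
CPM of each library for 8 genes whose response differed in size; bars give the mean and SD of 3 libraries, and the square marks replicate 3 of sh-IGFBP6 with erastin. SLC7A11, TFRC, PSAT1 and HSPA1A rose less in sh-IGFBP6, RHOB, MT1X and GABARAPL1 rose more, and SAT1 rose in sh-IGFBP6 with no called change in sh-LUC.

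Heat shock genes also rose less in sh-IGFBP6. Of 21 tested, 14 had a lower response and 1 a higher one (71.4% called, against 26.2% of all genes), with median log2 responses of 0.45 in sh-IGFBP6 and 1.14 in sh-LUC. HSPA1A, an inducible HSP70, had 99.3, 111 and 122 CPM in sh-IGFBP6 with erastin and 8.43, 7.71 and 8.61 CPM in controls, against 517, 521 and 415 CPM in sh-LUC with erastin and 12.7, 12.6 and 13.9 CPM in controls. Both lines rose many-fold, and the rise was smaller in sh-IGFBP6 (-1.52 ± 0.24, adjusted p = 7.4e-07); HSPA1B is a near-identical copy and the split of reads between them is uncertain. HSP90AA1, the inducible HSP90, had 3131, 3345 and 3691 CPM in sh-IGFBP6 with erastin and 2038, 2037 and 2091 CPM in controls, against 3761, 3863 and 3159 CPM in sh-LUC with erastin and 958, 1092 and 1067 CPM in controls (-1.07 ± 0.10, adjusted p = 6.1e-18). CHORDC1, a co-chaperone of HSP90, had 127, 135 and 149 CPM in sh-IGFBP6 with erastin and 104, 92.1 and 94.5 CPM in controls, against 330, 297 and 248 CPM in sh-LUC with erastin and 57.7, 57.7 and 64 CPM in controls (-1.83 ± 0.13, adjusted p = 3.4e-17). The groups were separate in both lines. HSPB1, a small heat shock protein, was the member with a larger rise in sh-IGFBP6 (0.28 ± 0.10, adjusted p = 0.0185), and 6 of the 12 refits without 1 library kept it in that class. The CHORDC1 promoter is shown because it held the heat shock element GAANNTTC 3 times, read on both strands, more often than any other of the 10955 tested genes with a RefSeq promoter (0.00913% held at least as many). The window runs from 250 bases before to 50 after the RefSeq start site, GRCh38.p14, chr11:90223000-90223299 on the minus strand, written 5′ to 3′ with the matches in capitals.
CHORDC1: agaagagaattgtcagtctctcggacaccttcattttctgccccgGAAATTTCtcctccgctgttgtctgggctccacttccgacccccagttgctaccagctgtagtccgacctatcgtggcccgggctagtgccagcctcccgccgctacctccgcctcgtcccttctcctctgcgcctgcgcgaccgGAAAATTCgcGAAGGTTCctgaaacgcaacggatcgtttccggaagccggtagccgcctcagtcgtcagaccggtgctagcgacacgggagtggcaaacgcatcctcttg
Other heat shock genes that rose less in sh-IGFBP6 held fewer: HSPA1A held 1, and HSP90AA1, HSPH1 and HSPD1 held none. HSPB1, which rose more there, held 1. At least 1 heat shock element stood in 7.14% of promoters of genes with a smaller response in sh-IGFBP6 and in 6.19% of those with a larger one, against 4.63% of all tested promoters.

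Among genes tied to ferroptosis itself the picture was mixed. TFRC, the transferrin receptor that imports iron, had 578, 635 and 598 CPM in sh-IGFBP6 with erastin and 569, 567 and 503 CPM in controls, against 414, 416 and 404 CPM in sh-LUC with erastin and 101, 90.8 and 104 CPM in controls. The untreated sh-IGFBP6 libraries were above the erastin-treated sh-LUC libraries, and the difference in response was -1.91 ± 0.09 (adjusted p = 3.8e-40). Its rise in sh-IGFBP6 was at the edge of the threshold (0.15 ± 0.06, adjusted p = 0.0436), so that 5 of the 12 refits without 1 library kept it among genes that rose in both lines. HMOX1, heme oxygenase 1, had 428, 470 and 587 CPM in sh-IGFBP6 with erastin and 4.82, 6.94 and 5.91 CPM in controls, against 1324, 1286 and 1017 CPM in sh-LUC with erastin and 4.25, 5.71 and 4.31 CPM in controls. Controls of the 2 lines overlapped, and the rise was smaller in sh-IGFBP6 (-1.73 ± 0.39, adjusted p = 0.00311). PTGS2, cyclooxygenase 2 and a common marker of ferroptosis, had 149, 133 and 156 CPM in sh-IGFBP6 with erastin and 33.7, 37.4 and 36.9 CPM in controls, against 239, 190 and 204 CPM in sh-LUC with erastin and 18.8, 18 and 20.6 CPM in controls (-1.48 ± 0.14, adjusted p = 1.2e-15). GPX4 had 99.5, 95.3 and 126 CPM in sh-IGFBP6 with erastin and 113, 100 and 110 CPM in controls, against 141, 153 and 157 CPM in sh-LUC with erastin and 185, 182 and 188 CPM in controls. No difference in its response was called (0.18 ± 0.10, adjusted p = 0.188). Of 28 ferroptosis genes tested, 8 had a lower response in sh-IGFBP6 and 4 a higher one, and 12 of 28 called (42.9%) compares with 26.2% of all genes. AIFM2, the suppressor also called FSP1, rose more in sh-IGFBP6 (0.56 ± 0.15, adjusted p = 0.00193).

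The NRF2 list was divided. Of 24 targets tested, 20 rose in each line, and 7 had a lower response in sh-IGFBP6, 3 a higher one and 14 no called difference (41.7% called, against 26.2% of all genes). By library size alone 5 were lower and 1 higher, and with the mitochondrial ribosomal RNA genes also left out 7 and 3. NQO1, a quinone reductase, had 123, 110 and 152 CPM in sh-IGFBP6 with erastin and 86.1, 85.2 and 90.8 CPM in controls, against 1170, 1211 and 1263 CPM in sh-LUC with erastin and 381, 405 and 470 CPM in controls (-1.09 ± 0.10, adjusted p = 3.4e-13). TXNRD1, thioredoxin reductase 1, rose in both lines by nearly as much, log2 1.35 ± 0.06 in sh-IGFBP6 and 1.79 ± 0.06 in sh-LUC (difference -0.44 ± 0.09, adjusted p = 2.7e-05). FTH1, ferritin heavy chain, is named after its values were seen: it rose by log2 2.58 in sh-IGFBP6 and 2.11 in sh-LUC, a difference that was not called (0.48 ± 0.21, adjusted p = 0.131). AKR1C3, an aldo-keto reductase, reversed. It had 18.8, 16.2 and 26.7 CPM in sh-IGFBP6 with erastin and 10.5, 9.25 and 10.8 CPM in controls, against 1.31, 1.07 and 1.53 CPM in sh-LUC with erastin and 2.83, 3.01 and 4.79 CPM in controls (2.30 ± 0.40, adjusted p = 1.8e-06). Its relatives AKR1C1 and AKR1C2, named after their values were seen, had fitted rises in both lines. Their differences of -0.12 ± 0.45 and -2.23 ± 1.17 were not called, and reads may be split among these related genes.

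The reversed genes with the largest changes in both lines, among those that went up in sh-IGFBP6, were chosen by the smaller of their 2 changes. BCL3, an atypical IκB protein that works with NF-κB p50 and p52 (chr19:44747705-44760044, plus strand), had 8.78, 8.19 and 11.4 CPM in sh-IGFBP6 with erastin and 4.82, 4.43 and 3.94 CPM in controls, against 7.69, 8.26 and 8.18 CPM in sh-LUC with erastin and 62.3, 62.5 and 52.9 CPM in controls. The lines differed widely in control medium and had similar levels with erastin (difference in response 3.84 ± 0.28, adjusted p = 9.4e-24). CSF1, the growth factor of macrophages, had 41.6, 41 and 68.6 CPM in sh-IGFBP6 with erastin and 18.4, 18.9 and 19.2 CPM in controls, against 238, 269 and 271 CPM in sh-LUC with erastin and 516, 506 and 495 CPM in controls (2.12 ± 0.13, adjusted p = 7.1e-30). The groups were separate in both lines, and the lines did not meet. BHLHE40, a transcriptional repressor tied to hypoxia and the clock, had 40.4, 47.5 and 45.7 CPM in sh-IGFBP6 with erastin and 21.1, 26.8 and 20.4 CPM in controls, against 45.3, 48.1 and 43.3 CPM in sh-LUC with erastin and 102, 115 and 110 CPM in controls (2.17 ± 0.14, adjusted p = 3.2e-27). With erastin the lines overlapped. A4GALT, which makes globotriaosylceramide, differed by 1.98 ± 0.22 and MAP1A, a microtubule-associated protein, by 2.73 ± 0.44, this last gene having overlapping sh-LUC groups and keeping its class in 8 of 12 refits. VSIR, TOX2 and CRISPLD2 met the rule as well but had few counts in sh-IGFBP6, with 0 counts in replicate 3 with erastin. TOX2 had 9 counts with erastin and 1 in controls there, a ratio of 9.1 with a 95% counting interval of 1.26 to 399, so its fitted difference of 4.13 depends on few reads, and without replicate 1 of sh-IGFBP6 with erastin it was 2.34 and not called (adjusted p = 0.452).

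NFKBIA and BCL3 belong to the NF-κB list, of which 26 genes were tested, 7 higher and 4 lower in sh-IGFBP6 (42.3% called, against 26.2% of all genes), with 3 reversed upward (against 1.51% of all genes). NFKBIA, the IκBα inhibitor, had 29.3, 30 and 19 CPM in sh-IGFBP6 with erastin and 21.1, 14.8 and 19.7 CPM in controls, against 28, 27.3 and 30.6 CPM in sh-LUC with erastin and 53.8, 48.7 and 58.9 CPM in controls. The sh-IGFBP6 groups overlapped through replicate 3, and the sh-LUC groups did not (1.61 ± 0.17, adjusted p = 6e-14). TNFAIP3, the ubiquitin-editing inhibitor A20, and CXCL8, interleukin 8, went the other way and rose less in sh-IGFBP6 (-1.15 ± 0.20 and -1.04 ± 0.19). The promoters of the pair of reversed NF-κB regulators are shown because each held 1 κB site, searched by name on both strands, with the match in capitals. The NFKBIA window is chr14:35404700-35404999 on the minus strand and the BCL3 window is chr19:44748458-44748757 on the plus strand.
NFKBIA: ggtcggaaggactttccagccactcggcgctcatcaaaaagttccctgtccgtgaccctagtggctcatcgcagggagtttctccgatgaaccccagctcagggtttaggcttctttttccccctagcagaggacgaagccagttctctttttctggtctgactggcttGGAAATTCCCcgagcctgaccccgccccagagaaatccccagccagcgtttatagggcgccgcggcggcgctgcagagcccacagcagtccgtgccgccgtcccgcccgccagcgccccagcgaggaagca
BCL3: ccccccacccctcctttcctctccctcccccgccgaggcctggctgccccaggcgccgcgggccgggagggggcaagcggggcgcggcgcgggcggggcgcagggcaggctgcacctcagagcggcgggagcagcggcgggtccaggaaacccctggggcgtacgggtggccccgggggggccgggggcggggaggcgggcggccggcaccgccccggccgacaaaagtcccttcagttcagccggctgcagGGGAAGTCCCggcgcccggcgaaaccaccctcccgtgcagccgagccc
A κB site of this kind is common, and the motif was added after values were seen. At least 1 such site stood in 16.7% of the 180 promoters of genes reversed upward in sh-IGFBP6 and in 11.6% of the 164 promoters of genes reversed downward, against 12.9% of all tested promoters. TNFAIP3, which did not reverse and rose less in sh-IGFBP6, held 2 such sites, and CXCL8 held none.

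TGF-β, activin and BMP genes held the most reversals among the lists described. Of 29 tested, 20 had a higher response in sh-IGFBP6 and 2 a lower one (75.9% called, against 26.2% of all genes). Median log2 responses were 0.31 in sh-IGFBP6 and -0.38 in sh-LUC. Of the 29, 10 reversed upward in sh-IGFBP6, against 1.51% of all genes: TGFB1, TGFBR1, SMAD7, SKI, LTBP1, ID1, ID3, ID4, BAMBI and PMEPA1. ID1, a BMP-induced inhibitor of differentiation, had 30.7, 32.3 and 22.9 CPM in sh-IGFBP6 with erastin and 22.6, 20.4 and 25.4 CPM in controls, against 20.9, 23.6 and 22.6 CPM in sh-LUC with erastin and 122, 101 and 86 CPM in controls. The sh-IGFBP6 groups overlapped and its reversal rested on a small rise there (0.46 ± 0.14, adjusted p = 0.00564), while the fall in sh-LUC was large (-2.18 ± 0.10). SMAD7, the inhibitory SMAD, had 21.7, 22.7 and 22.9 CPM in sh-IGFBP6 with erastin and 6.32, 8.48 and 13.8 CPM in controls, against 32.3, 31.3 and 36.3 CPM in sh-LUC with erastin and 38.9, 44.5 and 41.4 CPM in controls (1.52 ± 0.20, adjusted p = 6.5e-10). TGFB1, the TGF-β1 ligand, had 250, 249 and 251 CPM in sh-IGFBP6 with erastin and 207, 198 and 216 CPM in controls, against 149, 150 and 149 CPM in sh-LUC with erastin and 227, 208 and 218 CPM in controls (0.82 ± 0.09, adjusted p = 2.4e-14). Its controls overlapped between lines and its erastin groups did not. FST, follistatin, which binds activin, reversed the other way with 92.6, 89 and 87.6 CPM in sh-IGFBP6 with erastin and 115, 116 and 114 CPM in controls, against 55.3, 51.8 and 59.2 CPM in sh-LUC with erastin and 40.3, 46 and 37.4 CPM in controls (-0.77 ± 0.12, adjusted p = 1.7e-07). ID2 is named after its values were seen, since it had nearly the same fitted rise in both lines and no called difference (-0.04 ± 0.81, adjusted p = 0.997). With libraries scaled by size alone, 11 members were higher and 1 lower, and the list medians kept their signs. With the mitochondrial ribosomal RNA genes also left out, 20 were higher and 1 lower.

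**Figure D3:**
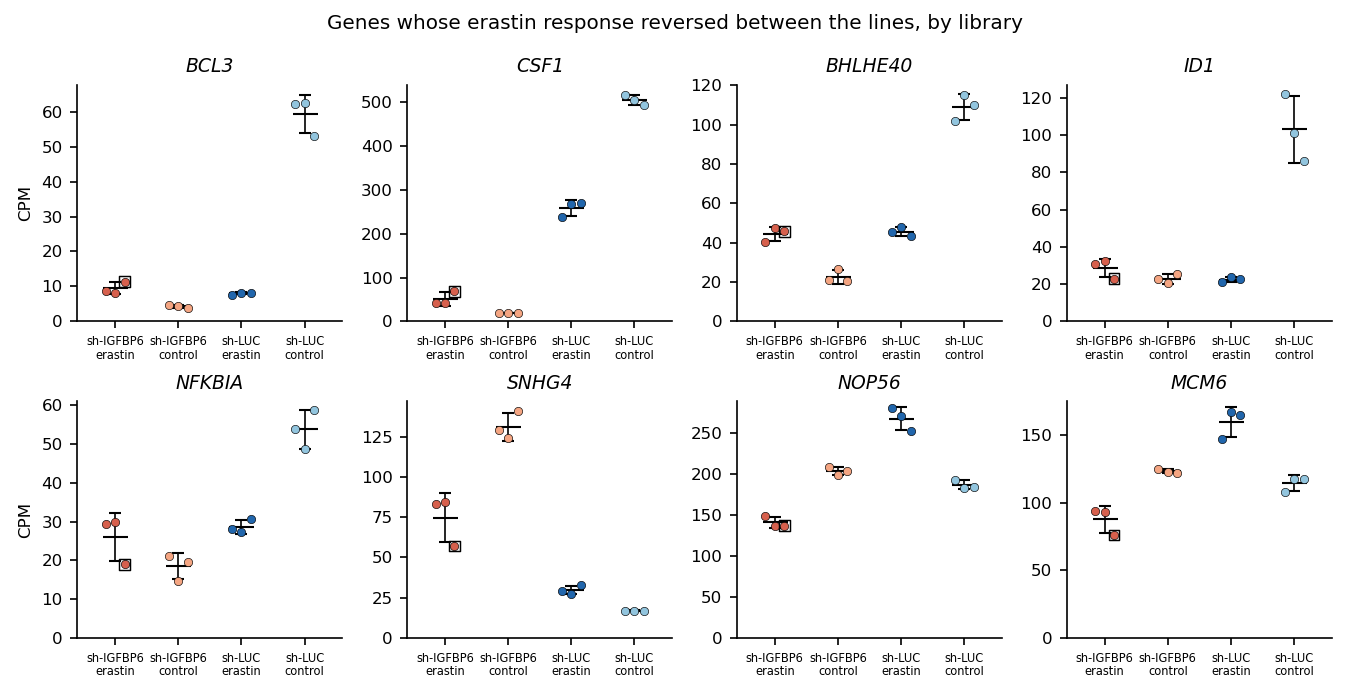
CPM of each library for 8 reversed genes; bars give the mean and SD of 3 libraries, and the square marks replicate 3 of sh-IGFBP6 with erastin. BCL3, CSF1, BHLHE40, ID1 and NFKBIA are higher with erastin in sh-IGFBP6 and lower in sh-LUC, and SNHG4, NOP56 and MCM6 show the opposite.

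Genes reversed downward in sh-IGFBP6 included 3 of 23 snoRNA host genes, 7 of 40 ribosome assembly factors, 3 of 33 DNA replication genes, 3 of 20 tRNA synthetases and 2 of 9 in the list of nuclear-retained RNAs, against 1.39% of all tested genes. The last list also held snoRNA host genes, SNHG1 among them, so it is not separate from the first. SNHG4, a host gene of small nucleolar RNAs (chr5:139274102-139284899, plus strand), had 83, 84.2 and 57.1 CPM in sh-IGFBP6 with erastin and 129, 124 and 141 CPM in controls, against 29.4, 27.2 and 32.7 CPM in sh-LUC with erastin and 17, 16.5 and 17 CPM in controls. All 4 groups were separate (-1.49 ± 0.14, adjusted p = 6.9e-16). SNHG1 also reversed, with 89.8, 82.5 and 83.8 CPM in sh-IGFBP6 with erastin and 129, 115 and 110 CPM in controls, against 82.7, 75.8 and 80.5 CPM in sh-LUC with erastin and 44.9, 45.1 and 45.8 CPM in controls (-1.25 ± 0.12, adjusted p = 9e-17). Of 23 snoRNA host genes, a list drawn up after values were seen, 16 had a lower response in sh-IGFBP6 and none a higher one. A second such list, of ribosome assembly factors, had 29 of 40 lower, none higher and 7 reversed downward. In sh-IGFBP6 9 of the 40 rose and 7 fell, and in sh-LUC 35 rose and none fell. Their sh-IGFBP6 median of 0.03 became -0.22 with libraries scaled by size alone. NOP56, a core protein of box C/D snoRNPs, had 149, 137 and 137 CPM in sh-IGFBP6 with erastin and 209, 199 and 203 CPM in controls, against 280, 270 and 252 CPM in sh-LUC with erastin and 193, 183 and 184 CPM in controls (-1.03 ± 0.09, adjusted p = 2.3e-18). The controls of the 2 lines were close and the erastin groups far apart. MIR137HG, the host gene of miR-137, had 14.6, 10.9 and 19 CPM in sh-IGFBP6 with erastin and 20.2, 19.3 and 23.9 CPM in controls, against 34.5, 30.4 and 31.2 CPM in sh-LUC with erastin and 20.9, 19.2 and 17.5 CPM in controls (-1.42 ± 0.20, adjusted p = 9.8e-09). Some genes that the naming rule chose are uncertain: KDM4A-AS1 and IGF2BP2-AS1 are antisense genes, and RPL36A and KRTAP4-8 have close relatives. KRTAP4-8 also had 0 counts in sh-LUC controls and 10 with erastin, which is at least 1.55-fold higher against a floor of 3 counts over the group. GFRA1, a receptor subunit for GDNF-family ligands, and ATG10, an autophagy enzyme, reversed at low levels and kept their class in 8 and 7 of the 12 refits.

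DNA replication genes fell more often in sh-IGFBP6. Of 33 tested, 29 fell in sh-IGFBP6 and 14 in sh-LUC, where 3 rose, and the response was lower in sh-IGFBP6 for 19 and higher for none. That is 57.6% called, against 26.2% of all genes, of which 14.3% fell in sh-IGFBP6 and 24.4% in sh-LUC. MCM6, a subunit of the replicative helicase, had 93.9, 93 and 76.2 CPM in sh-IGFBP6 with erastin and 125, 123 and 122 CPM in controls, against 147, 167 and 165 CPM in sh-LUC with erastin and 108, 118 and 118 CPM in controls (-0.88 ± 0.10, adjusted p = 9.3e-13). CDC6 and ORC1, which license origins, reversed in the same way (-0.74 ± 0.10 and -0.70 ± 0.18). Mitotic genes showed the contrary: of 32 tested, 30 fell in sh-IGFBP6 and 29 in sh-LUC, and for 17 the fall was smaller in sh-IGFBP6 (53.1% called, against 26.2% of all genes). PLK1, a mitotic kinase, had 78.3, 76.9 and 53.3 CPM in sh-IGFBP6 with erastin and 156, 135 and 145 CPM in controls, against 31.8, 32.8 and 28.9 CPM in sh-LUC with erastin and 124, 111 and 105 CPM in controls (0.94 ± 0.11, adjusted p = 1.5e-11). In these bulk libraries fewer dividing cells and less RNA per cell cannot be told apart. With libraries scaled by size alone the replication and mitosis medians kept their signs, with 6 replication genes lower and 2 mitotic genes higher. With the mitochondrial ribosomal RNA genes also left out, these counts were 18 and 17.

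Metallothioneins rose more in sh-IGFBP6. Of 12 metallothionein and zinc genes, 7 passed the filter, and 5 had a higher response in sh-IGFBP6 and none a lower one, with a median difference of 1.09 (71.4% called, against 26.2% of all genes). By library size alone 3 were higher, and with the mitochondrial ribosomal RNA genes also left out 5 were. MT1X, a zinc- and copper-binding metallothionein (chr16:56682424-56684196, plus strand), had 72, 92 and 95.2 CPM in sh-IGFBP6 with erastin and 8.73, 8.48 and 7.63 CPM in controls, against 43.9, 33.7 and 35.5 CPM in sh-LUC with erastin and 9.55, 15.3 and 15.3 CPM in controls (1.84 ± 0.23, adjusted p = 1.1e-10). MT2A, a second metallothionein, had 734, 771 and 743 CPM in sh-IGFBP6 with erastin and 200, 207 and 257 CPM in controls, against 710, 634 and 635 CPM in sh-LUC with erastin and 413, 419 and 410 CPM in controls (1.09 ± 0.14, adjusted p = 2e-05). In both genes the untreated sh-IGFBP6 libraries were lower and the erastin-treated ones higher than those of sh-LUC, though metallothioneins are close copies and reads may be split among them. Their promoters are shown because they are rich in the metal response element TGCACNC or TGCGCNC, a motif added after values were seen and read on both strands. MT2A held 8 matches, as at least did 0.0274% of tested promoters, and MT1X held 4, as at least did 0.739%; 38.3% of promoters held at least 1. The MT2A window is chr16:56608334-56608633 on the plus strand and the MT1X window is chr16:56682220-56682519 on the plus strand, with matches in capitals.
MT2A: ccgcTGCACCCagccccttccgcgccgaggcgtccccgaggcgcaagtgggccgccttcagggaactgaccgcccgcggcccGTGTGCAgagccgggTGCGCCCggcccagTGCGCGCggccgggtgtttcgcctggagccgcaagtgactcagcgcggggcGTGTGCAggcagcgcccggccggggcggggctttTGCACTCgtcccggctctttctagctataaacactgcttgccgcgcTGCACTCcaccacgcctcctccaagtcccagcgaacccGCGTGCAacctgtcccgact
MT1X: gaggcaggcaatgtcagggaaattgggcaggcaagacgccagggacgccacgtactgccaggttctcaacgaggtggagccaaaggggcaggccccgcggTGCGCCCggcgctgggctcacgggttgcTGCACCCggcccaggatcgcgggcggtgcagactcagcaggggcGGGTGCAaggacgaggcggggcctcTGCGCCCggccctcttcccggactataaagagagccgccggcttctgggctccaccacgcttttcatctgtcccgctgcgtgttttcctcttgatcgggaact

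RHOB, a stress-induced small GTPase (chr2:20447074-20449445, plus strand), had 125, 124 and 95.2 CPM in sh-IGFBP6 with erastin and 6.93, 6.17 and 5.66 CPM in controls, against 329, 300 and 269 CPM in sh-LUC with erastin and 111, 112 and 102 CPM in controls. The larger rise in sh-IGFBP6 (2.83 ± 0.16, adjusted p = 1.2e-30) started from a lower level, and erastin-treated sh-IGFBP6 stayed below erastin-treated sh-LUC. GABARAPL1, an ATG8 protein of autophagosomes, had 62.7, 69.3 and 91.4 CPM in sh-IGFBP6 with erastin and 14.2, 14.5 and 10.1 CPM in controls, against 45.7, 45.7 and 47 CPM in sh-LUC with erastin and 39.6, 34.6 and 35.5 CPM in controls (2.01 ± 0.17, adjusted p = 8.4e-20). SAT1, the polyamine-degrading enzyme spermidine/spermine acetyltransferase, had 90.6, 126 and 91.4 CPM in sh-IGFBP6 with erastin and 21.1, 23.1 and 20.9 CPM in controls, against 79.8, 78.9 and 77.9 CPM in sh-LUC with erastin and 71.1, 69.4 and 87.7 CPM in controls. The sh-LUC groups overlapped and the sh-IGFBP6 groups did not (2.24 ± 0.14, adjusted p = 4.1e-26). DUSP8, a phosphatase of stress kinases, KLF2, a Krüppel-like factor, and CDKN1A, the cell cycle inhibitor p21, also rose more (3.02 ± 0.56, 1.24 ± 0.18 and 0.67 ± 0.11). Of 28 autophagy and lysosome genes, 11 had a higher response in sh-IGFBP6 and 2 a lower one, against 14.1% and 12% of all genes. By library size alone 2 were higher and 1 lower, and with the mitochondrial ribosomal RNA genes also left out 11 and 1. OPTN, LAMP2 and CTSB were among those that reversed upward there, CTSB keeping its class in 2 of 12 refits. FOS, an early gene named after its values were seen, rose by log2 5.29 in sh-IGFBP6 and 5.35 in sh-LUC (-0.06 ± 0.34, adjusted p = 0.914).

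Cholesterol genes fell less in sh-IGFBP6. Of 25 cholesterol synthesis and uptake genes, 17 fell in sh-IGFBP6 and 23 in sh-LUC, and the response was higher in sh-IGFBP6 for 16 and lower for none, with medians of -0.46 in sh-IGFBP6 and -0.99 in sh-LUC. That is 64% called, against 26.2% of all genes, and 4 were higher by library size alone. With the mitochondrial ribosomal RNA genes also left out, 16 were higher. SCD, which makes monounsaturated fatty acids, had 759, 841 and 590 CPM in sh-IGFBP6 with erastin and 1193, 1209 and 948 CPM in controls, against 311, 323 and 330 CPM in sh-LUC with erastin and 984, 1072 and 1085 CPM in controls (1.15 ± 0.11, adjusted p = 2.5e-09). Erastin lowered SCD in both lines, and its untreated levels in the lines were close. Of 19 fatty acid genes tested, 6 were higher and none lower (31.6% called, near the 26.2% over all genes), and none was called by library size alone. Their median difference of 0.21 became -0.02 with libraries scaled by size alone. With the mitochondrial ribosomal RNA genes also left out, 6 were higher and the median was 0.21. Interferon response genes were higher in sh-IGFBP6 for 10 of 31 and lower for none (median difference 0.37). That is 32.3% called, near the 26.2% over all genes, and 4 were called by library size alone. With the mitochondrial ribosomal RNA genes also left out, 10 were called. IRF1, an interferon-induced transcription factor, had 14.9, 12 and 19 CPM in sh-IGFBP6 with erastin and 12.6, 12.3 and 16.2 CPM in controls, which overlapped, against 28.3, 28.5 and 34.6 CPM in sh-LUC with erastin and 68.3, 80.3 and 69.2 CPM in controls (1.26 ± 0.19, adjusted p = 4.6e-08).

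**Figure D4:**
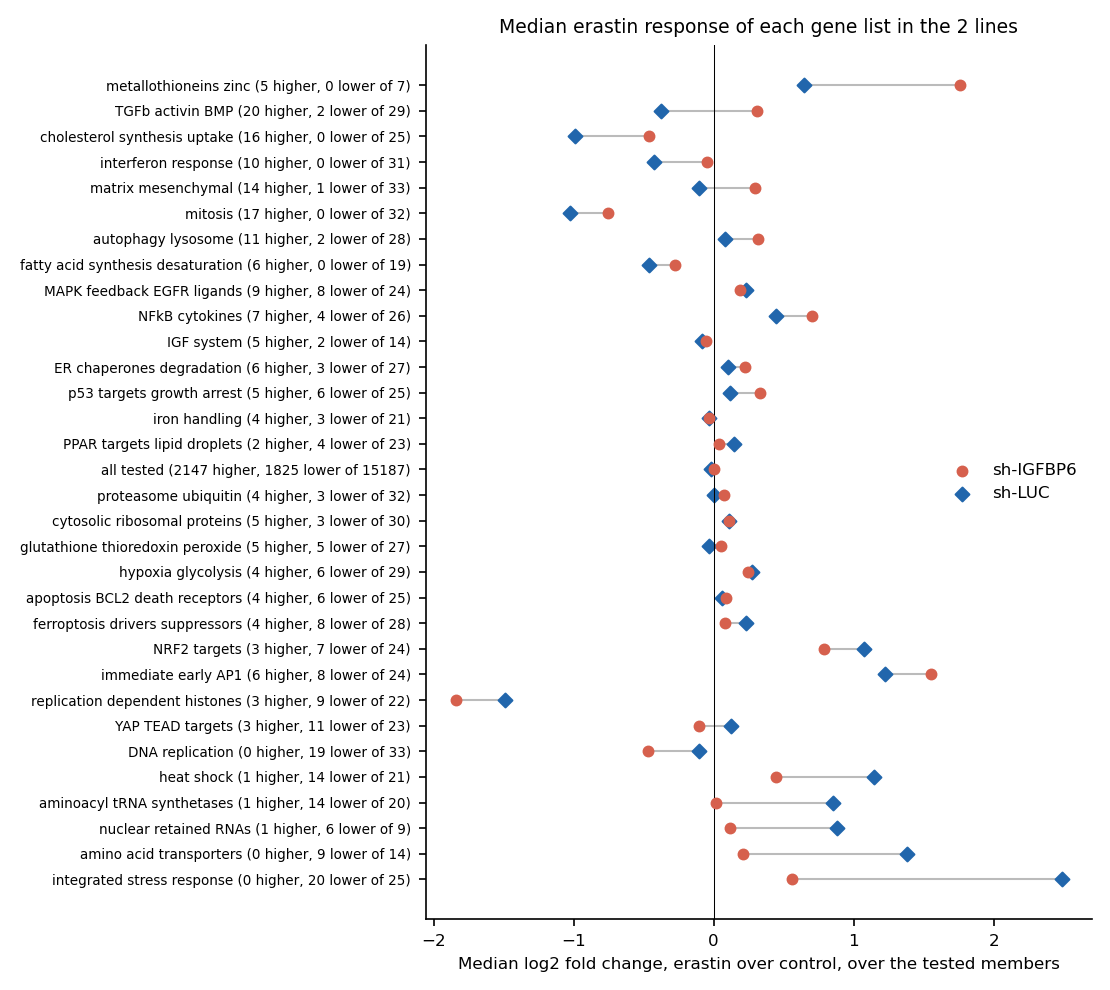
Median log2 fold change of erastin over control for 31 gene lists and all tested genes, in sh-IGFBP6 (circles) and sh-LUC (diamonds), ordered by the median difference; the counts beside each name are genes with a higher or lower response in sh-IGFBP6. The 2 lines stand farthest apart for the integrated stress response at the bottom. Medians up to 0.23 from 0 changed sign under another scaling in 12 of all 34 lists, among them the ribosome assembly factors, which are not drawn.

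The other lists follow, read against 14.1% higher and 12% lower over all genes. Extracellular matrix and mesenchymal genes were higher in sh-IGFBP6 for 14 of 33 and lower for 1 (median difference 0.31; by library size alone 2 and 1), and YAP-TEAD targets were higher for 3 of 23 and lower for 11 (-0.30; by library size alone 0 and 1). MAPK feedback genes and EGFR ligands were split, 9 higher and 8 lower of 24 (2 and 5 by library size alone), as were early AP-1 genes, 6 higher and 8 lower of 24 (3 and 5). Replication-dependent histones fell in both lines, 22 of 22 in sh-IGFBP6 and 21 of 22 in sh-LUC, with a lower response in sh-IGFBP6 for 9 and a higher one for 3, none of which was called by library size alone. These genes are near-identical copies, so reads may be split among them. With the mitochondrial ribosomal RNA genes also left out, 14 matrix genes were higher and 1 lower, and 3 and 11 YAP-TEAD targets. In that setting MAPK genes had 9 and 8, early AP-1 genes 7 and 8, and histones 3 and 8. The list of nuclear-retained RNAs was higher for 1 of 9, MALAT1, and lower for 6, with a median difference of -0.85. It also held the snoRNA host genes SNHG1, SNHG12 and GAS5, so its lower members are not all nuclear-retained RNAs. In the lists for glutathione and peroxide enzymes, iron, hypoxia, PPAR targets, endoplasmic reticulum chaperones, the proteasome, p53 targets, apoptosis, the IGF system and cytosolic ribosomal proteins, the median difference was within 0.1 of 0. For iron, PPAR targets, endoplasmic reticulum chaperones, the proteasome, p53 targets and cytosolic ribosomal proteins it changed sign under another scaling. A median near 0 could hide calls both ways. The IGF system had 5 higher and 2 lower of 14 (50% called), p53 targets 5 and 6 of 25 (44%). Apoptosis genes had 4 and 6 of 25 (40%), and glutathione and peroxide enzymes 5 and 5 of 27 (37%). The rest of these lists had 21.9 to 34.5% called, against 26.2% of all genes.

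Among genes with a response in 1 line alone, the largest differences by the rule often rested on few reads. SERPINB2, a serine protease inhibitor, had 263, 262 and 419 CPM in sh-IGFBP6 with erastin and 82.8, 87.3 and 86.1 CPM in controls, and at most 1.06 CPM in any sh-LUC library (2.51 ± 0.88, adjusted p = 0.0251). CCL2, a monocyte chemokine, had 89.3, 75.8 and 72.4 CPM in sh-IGFBP6 with erastin and 39.1, 36.8 and 41.6 CPM in controls, and at most 1.42 CPM in sh-LUC (2.37 ± 0.87, adjusted p = 0.0315). Neither call held without replicate 1 of sh-LUC control (adjusted p = 0.214 for SERPINB2 and 0.504 for CCL2). SERPINB2 also lost its call without replicate 2 of sh-LUC control (adjusted p = 0.0767) or replicate 3 of sh-LUC with erastin (0.065). CCL2 also lost its call without replicate 1 of sh-IGFBP6 with erastin (adjusted p = 0.0569), or without replicate 2 (0.0751) or 3 (0.0783) of sh-LUC with erastin. MALAT1, a nuclear-retained long noncoding RNA, had 7773, 8550 and 9261 CPM in sh-IGFBP6 with erastin and 3598, 4072 and 3504 CPM in controls, against 10075, 9601 and 9379 CPM in sh-LUC with erastin and 8350, 9193 and 9602 CPM in controls (1.10 ± 0.10, adjusted p = 7.3e-17). ATOH8, a basic helix-loop-helix factor, was called in sh-LUC alone. It had at most 0.945 CPM in any sh-IGFBP6 library, against 3.05, 4.66 and 4.47 CPM in sh-LUC with erastin and 29, 28 and 31.1 CPM in sh-LUC controls (3.57 ± 0.80, adjusted p = 0.0002). Without replicate 1 of sh-IGFBP6 with erastin this call was lost (adjusted p = 0.0636). KRTAP2-3, P2RY6 and ADORA1 were likewise at or near 0 in 1 group, and their fitted differences depend on few reads.

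The mitochondrially encoded mRNAs gave a median that depended on the shallow library. With all libraries the median difference over 13 genes was 0.85 and none was called, and without replicate 3 of sh-IGFBP6 with erastin it was -0.26, with 1 called lower. For the 205 genes named by the rule, the median absolute change of the log2 difference without that library was 0.02. The largest was 0.37 for P2RY6, and no sign changed. The rule took genes ranked by class only if they kept their class without that library, so for these a kept sign was fixed by the choice. Among all genes called, 3823 of 3973 calls were kept with the same sign. By library size alone, 85 of the 202 called among the named genes lost their call, and with the mitochondrial ribosomal RNA genes also left out 4 did. Among genes described above, the calls lost by library size alone were those of AIFM2 (adjusted p = 0.171), TXNRD1 (0.184), QARS1 (0.834), HSPB1 (0.945), MT2A (0.106), TGFB1 (0.289), SCD (0.0763), CDKN1A (0.37), CTSB (0.291), MALAT1 (0.158), SERPINB2 (0.193), CCL2 (0.208) and ADORA1 (0.13). All kept their sign.

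**Figure D5:**
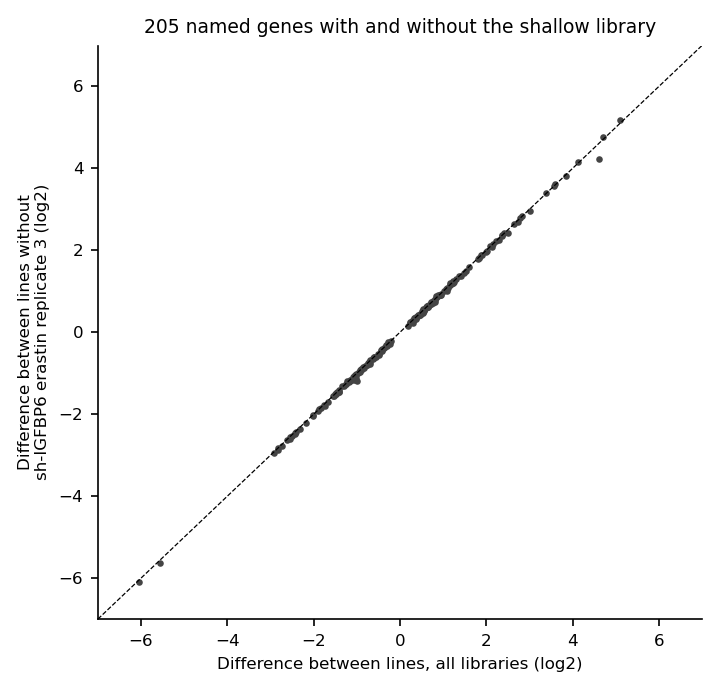
Log2 difference between lines in the erastin response for the 205 named genes, without replicate 3 of sh-IGFBP6 with erastin (vertical) against all libraries (horizontal). Points lie close to the dashed line of equal values, and none changes sign. Genes ranked by class were named only if they kept their class without this library.

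The classes also differed in make-up. Long noncoding genes were 2.62% of genes reversed upward in sh-IGFBP6, 8.06% of those reversed downward and 0% of those with a larger response there, against 11.5% of all tested genes. The median level was 58 CPM for genes reversed upward and 64.8 CPM for those reversed downward, against 22.6 CPM over all tested genes. A gene had to be called in both lines to count as reversed. The CCAAT box stood in 28.9% of promoters of genes reversed upward, 36.6% of those reversed downward, 47.8% of those with a larger and 45.7% of those with a smaller response in sh-IGFBP6, against 36.8% of all tested promoters. These shares are descriptions of 300 bases per gene and were not tested.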

How the data were processed

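RNA from 18 MDA-MB-231 libraries was rRNA-depleted and sequenced. The deposited values are whole-number read counts per gene for each library, which the authors made with cutadapt 4.4, STAR 2.7.7a and featureCounts on GRCh38, per the submitters' processing notes. For the annotation release and strand setting of counting, nothing was stated in those notes or the labels. Symbols were matched for 60436 genes in a table of gene names and for 257 more in GENCODE release 29 (GRCh38), which also gave positions; 16 had none. A gene with blank counts and lines naming no gene (at most 0.01082% of a library) were left out.

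Counts were tested with edgeR 4.0.16 in R 4.3.3: genes kept by filterByExpr with a minimum count of 10 and a minimum total of 15, TMM factors, 1 coefficient per group over all 18 libraries (12 residual degrees of freedom), the robust quasi-likelihood test, and Benjamini-Hochberg adjustment over 15189 genes with a threshold of 0.05. The 6 DHA libraries served only for the spread. Errors of log2 values are SE. CPM used TMM library sizes. The fit was tested on simulated data. Totals in the 12 libraries ran from 609936 to 7977429 counts, which limits the precision of low genes; intervals cover counting error only.

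Genes named in the text were 9 key genes, the reversed, larger, smaller and 1-line genes with the largest changes among those with a mean of at least 5 CPM that kept their class without replicate 3 of sh-IGFBP6 with erastin, and in each of 32 lists up to 4 called members with the smallest p and any called against the majority; other genes are said to be chosen after their values were seen. The members and lists were chosen with earlier results of these data known, and 2 lists and 2 motifs were added after seeing values. Promoters came from RefSeq on GRCh38.p14, with a match for 10955 of 15187 genes. Alternatives were other scalings, no filter, DESeq2 1.42.0, the 12 libraries alone, a replicate block, no mitochondrial ribosomal RNA genes, a 1.5-fold size and each library left out in turn.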

Additional observations from a re-analysis of the deposited data

Results flagged for a closer look

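The difference between lines in the erastin response was called for 3973 genes by the interaction test, and 440 of them reversed direction. Among the reversed genes with the largest changes in both lines, the log2 difference was 3.59 for VSIR, 4.13 for TOX2, 2.37 for CRISPLD2, 3.84 for BCL3, 2.12 for CSF1, 1.98 for A4GALT, 2.17 for BHLHE40 and 2.73 for MAP1A, which were up in sh-IGFBP6 and down in sh-LUC. It was -5.56 for KRTAP4-8, -1.67 for GFRA1, -1.87 for KDM4A-AS1, -1.54 for RPL36A, -2.73 for IGF2BP2-AS1, -1.42 for MIR137HG, -1.49 for SNHG4 and -1.42 for ATG10, which were down in sh-IGFBP6 and up in sh-LUC. KRTAP4-8 had 0 counts in sh-LUC controls, so its value is no measure of size.

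MT-RNR1 and MT-RNR2 together took up 54.4% of the counts of replicate 3 of sh-IGFBP6 with erastin. Across the 11 remaining libraries this share ran from 0.0471 to 0.280%. Both genes were kept in the library totals of the main fit and were left out only in alternative settings.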

How the results depend on the processing

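With libraries scaled by size alone, 1327 genes differed between lines, 588 higher and 739 lower; erastin changed 2728 genes in sh-IGFBP6 (630 higher) and 4571 in sh-LUC (1457 higher). That setting gave 83 reversed genes (31 up and 52 down in sh-IGFBP6), 15 larger, 99 smaller, 247 in sh-IGFBP6 alone, 817 in sh-LUC alone and 66 in neither; 73 of the 83 were among the 440. Under it PKM and H1-2 changed sign, to -0.041 (adjusted p = 0.974) and -0.020 (adjusted p = 0.991); the cause was not tested. With MT-RNR1 and MT-RNR2 also left out, an alternative chosen after seeing the data, 3885 genes differed. With no filter, 3117 of 40442 genes differed, 1388 higher, with 278 reversed, 120 of them up, and 82 larger. DESeq2 called 2691, 1400 higher, with 1466 higher in sh-IGFBP6 and 244 reversed (121 up, 123 down), 88 larger, 282 smaller and 471 in sh-IGFBP6 alone. At a size of at least 1.5-fold there were 53 reversed (36 up, 17 down), 25 larger, 108 smaller, 278 in sh-IGFBP6 alone, 1171 in sh-LUC alone and 555 in neither. Leaving out 1 library at a time gave 3140 to 3977 genes, 1421 to 2071 higher, 298 to 429 reversed (127 to 220 up) and 265 to 427 smaller; the lowest values of these 5 ranges came without replicate 1 of sh-IGFBP6 with erastin. Same-numbered replicates did not deviate together (correlations -0.0314 to 0.0484 over 18 pairs). These values show no pairing by number, but with 3 libraries a group they cannot exclude shared cultures or days. With a replicate block 4101 genes differed and 461 reversed.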
